A study of Mus musculus with 23 samples.

Results

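The 9 genes Sox1, Sox3, Sox11, Nes, Neurog2, Neurod1, Olig2, Tubb3 and Islr2 mark neural progenitors or early neurons, and were taken by gene name from the 23369 gene names of the RNA-seq tables. Of the 9, 5 were lower in the samples labelled tamoxifen than in those labelled untreated, without overlap of the groups: Neurod1, Islr2, Olig2, Sox1 and Nes. Of all genes tested, 5.4% were lower in this way. The 9 genes were chosen with earlier results of these data known, so such shares describe them and are no test of the set. Mean levels of the 5 genes differed by 3.56-, 2.69-, 2.06-, 1.98- and 1.48-fold, respectively (n = 3 per group). Sox3, Sox11 and Tubb3 had overlapping groups, and Neurog2 was below the limit for testing. None of the differences passed the test when replicates were treated as unpaired. When samples with the same replicate number were compared with each other, all 5 of the lower genes passed it. So did 6.06% of all genes tested, in the lower direction. Without replicate number 2 only 1 of the 5 passed it, and with no filter on low values 0 did. When values were divided by each sample's FPKM sum, only 1 of the 5 kept its groups apart. Islr2 reached the limit for testing through its untreated samples, where it was higher, so its call supports nothing further.

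PolyA+ RNA was sequenced from mouse embryonic stem cells (ESCs), labelled as MS12 Kdm2b fl/fl; the targeted allele was made in MS12 cells and passed through mice, from which the ESCs were raised. All 6 samples carry Kdm2b fl/fl, in which loxP sites flank an exon encoding most of the ZF-CxxC domain of KDM2B, and a Rosa26 ERT2-Cre allele, whose recombinase becomes active with 4-hydroxytamoxifen. Cells kept on mitomycin C-inactivated mouse embryonic fibroblasts in serum and LIF were plated overnight without feeders and then cultured for 72 hr without drug (untreated, 3 replicates) or with it (tamoxifen, 3 replicates). The sample labels give 800 nM of drug and the text of the series gives micromolar units for the same figure. The samples hold no tamoxifen-treated cells without the floxed allele, so that drug, Cre activity and loss of the domain cannot be told apart, and all carry 1 cell line label. The names of the deposited files read opposite to the sample labels for all 6 samples. Groups follow the labels; under the other reading every difference keeps its size and changes its sign.

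As background, KDM2B binds nonmethylated CpG dinucleotides through its ZF-CxxC domain and brings a PCGF1-containing Polycomb repressive complex 1 (PRC1) to CpG islands, among them those of developmental genes that ESCs keep at low levels. The genes described here act at successive steps of the neural lineage. SOX1 and SOX3 are SoxB1 transcription factors of the early neural plate, proneural basic helix-loop-helix (bHLH) factors such as NEUROG2 and NEUROD1 drive progenitors into neuronal differentiation, and SOX11 and the tubulin TUBB3 are typical of newly formed neurons.

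The promoters are shown because CpG is the sequence that the deleted domain binds. They are the bases before the gene start on the sense strand, 5′ to 3′, from RefSeq on GRCm38.p6, with each CpG in capitals. They lie at chr16:91225300-91225549 (plus strand) for Olig2, chr2:79456752-79456886 (minus) for Neurod1, chr3:87970843-87971092 (plus) for Nes, chr9:58202535-58202784 (minus, 1 of 3 starts) for Islr2 and chr3:127632886-127633135 (plus) for Neurog2. For Neurod1, only the 135 bases outside its GENCODE transcript are given. They stop short of the RefSeq gene start and hold 6 of the 22 CpG counted over its 250 bases.
Olig2: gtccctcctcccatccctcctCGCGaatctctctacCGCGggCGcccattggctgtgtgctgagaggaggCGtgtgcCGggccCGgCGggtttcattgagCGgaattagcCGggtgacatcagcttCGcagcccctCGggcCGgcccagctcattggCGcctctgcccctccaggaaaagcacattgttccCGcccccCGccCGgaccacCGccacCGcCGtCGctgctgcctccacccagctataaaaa
Neurod1: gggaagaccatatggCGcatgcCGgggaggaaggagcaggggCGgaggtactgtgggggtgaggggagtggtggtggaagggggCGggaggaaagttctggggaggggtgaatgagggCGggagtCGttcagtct
Nes: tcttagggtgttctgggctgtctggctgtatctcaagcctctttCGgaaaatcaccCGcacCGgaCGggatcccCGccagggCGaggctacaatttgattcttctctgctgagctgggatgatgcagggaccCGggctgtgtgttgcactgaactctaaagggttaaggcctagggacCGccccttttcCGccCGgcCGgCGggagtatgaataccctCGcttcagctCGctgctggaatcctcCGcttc
Islr2: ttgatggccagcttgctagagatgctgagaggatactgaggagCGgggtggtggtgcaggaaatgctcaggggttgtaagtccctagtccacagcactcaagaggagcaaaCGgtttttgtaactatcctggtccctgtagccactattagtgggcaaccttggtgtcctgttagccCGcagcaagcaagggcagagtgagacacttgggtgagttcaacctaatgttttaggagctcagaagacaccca
Neurog2: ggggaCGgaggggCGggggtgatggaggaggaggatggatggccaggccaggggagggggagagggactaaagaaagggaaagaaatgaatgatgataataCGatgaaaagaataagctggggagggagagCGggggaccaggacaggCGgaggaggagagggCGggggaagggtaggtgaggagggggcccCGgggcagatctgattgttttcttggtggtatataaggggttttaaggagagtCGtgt
Over 250 bases before the start, Sox1 held 29 CpG, Neurod1 and Olig2 22 each, Tubb3 21, Sox11 17, Nes 15 and Neurog2 8, and the 3 starts of Islr2 held 11, 3 and 10. The median over all 32851 promoters of this length was 6, with quartiles of 2 and 16, and 92.1% held at least 1. The shown start of Islr2, with 3 CpG, lay within these quartiles, and 29.0% of promoters held fewer. Whether CpG counts relate to the differences between the groups was not tested. The bHLH recognition sequence CANNTG, which reads the same on both strands, was found in 66.2% of all promoters. It occurred 2 times in Sox11, 1 time in Neurod1 and 1 time in each of 2 Islr2 windows. These windows overlap, and the site is the same one, in the bases that they share.

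FPKM divide the fragments of a gene by its transcript length and the size of the library, and so can be compared between genes. In the untreated samples the order of mean levels was Tubb3 (53.8 ± 8.75 FPKM, SD, n = 3 here and below), Olig2 (22.3 ± 3.8), Nes (15.4 ± 2.37), Neurod1 (12.4 ± 5.25), Sox11 (10.0 ± 1.22), Sox3 (4.58 ± 1.76), Sox1 (3.79 ± 0.231), Islr2 (1.35 ± 0.437) and Neurog2 (0.0656 ± 0.0229). The neighbours Nes and Neurod1, Neurod1 and Sox11, and Sox3 and Sox1 had overlapping ranges, whereas the other neighbours in this order did not. These genes therefore spanned much of the range of the libraries, since 93.6% of gene names had a lower untreated mean than Tubb3 and 33.1% a lower one than Neurog2. In the tamoxifen samples Sox11 stood second, behind Tubb3, and Neurod1 had moved from rank 4 to rank 6. Embryonic stem cell identity was checked with 10 pluripotency genes, which summed to 916 to 1510 FPKM in the untreated and 1220 to 1770 FPKM in the tamoxifen samples. Pou5f1 was the largest part of this sum in every sample, so the sum says little about the other genes. In bulk RNA, fewer cells of a type and less RNA per cell cannot be told apart.

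Differences were tested on log2(FPKM + 0.1) across the 12997 genes that reached 0.5 FPKM in at least 3 samples, once without a block and once with the replicate number as a block, which compares each tamoxifen sample with the untreated sample of the same number. Across these genes the unblocked fit called 1 gene lower (0.00769% of those tested) and 3 higher (0.0231%), and the block called 6.06% lower and 4.33% higher, at an adjusted p under 0.05. Of the 8 members tested, the unblocked limma fit called 0, with 5 at an unadjusted p under 0.05, all lower, where 2.94% of all genes were lower at that level. With the block, limma called 5 lower and 0 higher. The same 5 were lower without overlap, and 3.09% of all genes tested were higher without overlap. The median log2 fold change of the 8 was −0.76, and that of all genes tested was −0.019. Islr2 reached the filter through its untreated samples, so that these counts and the median describe the 8 genes and support nothing further.

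**Figure D1:**
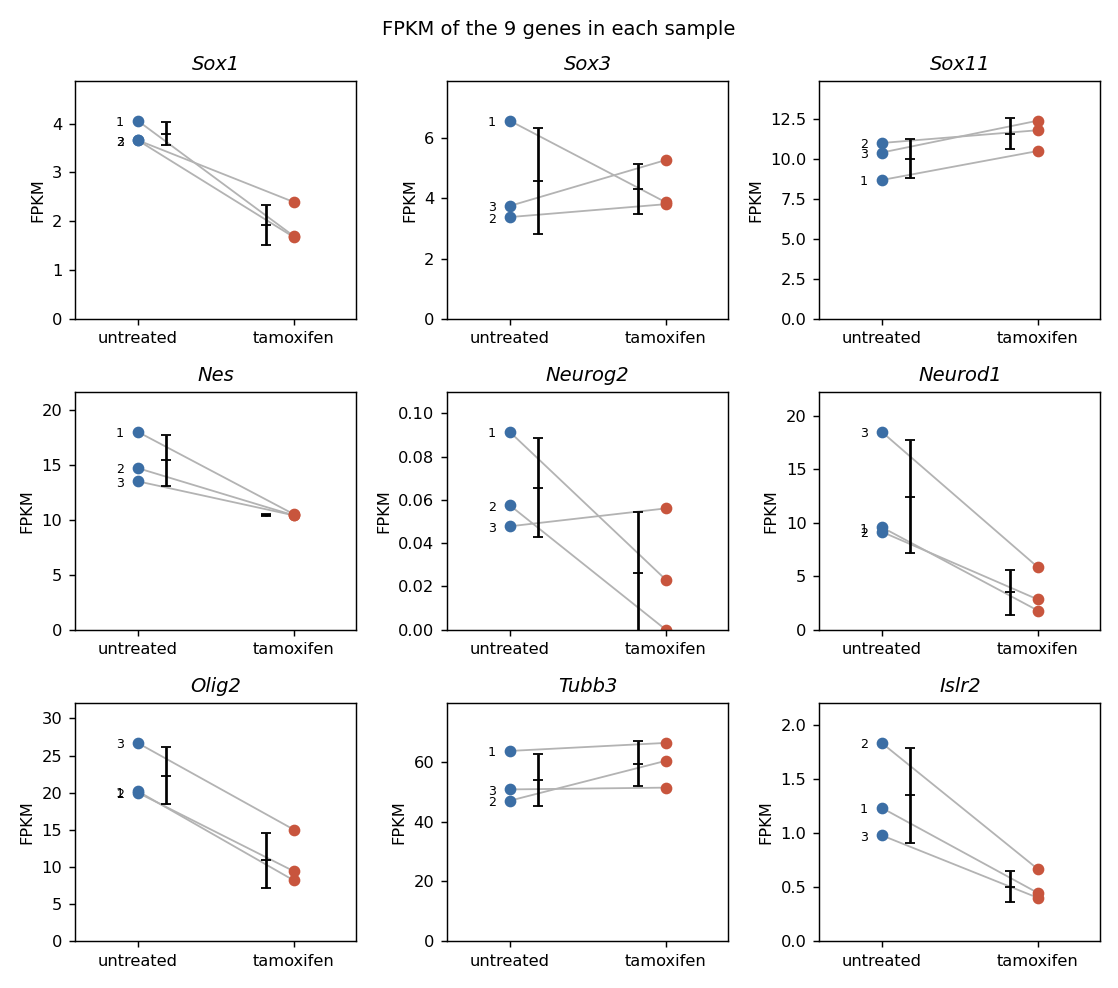
FPKM (y axes, linear from 0) of the 9 genes in untreated and tamoxifen samples (x axes); points are samples, grey lines join equal replicate numbers (numbered at the left) and black marks give mean ± SD (n = 3). The groups are apart for Sox1, Nes, Neurod1, Olig2 and Islr2, and overlap for Sox3, Sox11, Tubb3 and Neurog2.

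Among the bHLH factors, Neurod1 (chr2:79292798-79296793 in mm9, minus strand), a factor of neuronal differentiation, differed most. It measured 9.59, 9.16 and 18.5 FPKM in untreated replicates 1, 2 and 3 and 1.79, 2.83 and 5.84 FPKM in the tamoxifen replicates. Replicate 3 was the highest of each group, and yet the highest tamoxifen value remained below the lowest untreated one. The log2 fold change was −1.89 (SE 0.45 without the block and 0.16 with it; adjusted p = 0.4 and 0.0029). Within replicate numbers 1, 2 and 3 the log2 difference was −2.36, −1.66 and −1.64.

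Olig2 (chr16:91225795-91228922, plus strand), which specifies motor neuron and oligodendrocyte progenitors, was the most abundant of the bHLH genes among the 9. Its levels were 20.2, 20.0 and 26.7 FPKM in the untreated samples and 8.15, 9.39 and 15.0 FPKM in the tamoxifen samples. Here too replicate 3 was highest in each group and the groups were apart. The log2 fold change was −1.07 (SE 0.28 and, with the block, 0.12; adjusted p = 0.45 and 0.0042), with −1.3, −1.08 and −0.83 within the replicate numbers. Its relative Olig1, 41091 bp away on the same chromosome, measured 45.6, 22.9 and 25.6 against 29.3, 16.1 and 22.6 FPKM and did not pass the test (log2 fold change −0.44, adjusted p = 1.0, or 0.051 with the block).

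Neurog2 (chr3:127336063-127338549, plus strand), the proneural factor that acts upstream of Neurod1 in the cortex, was barely detected. It had 0.0915, 0.0576 and 0.0478 FPKM in the untreated samples and 0.0231, 0 and 0.0561 FPKM in the tamoxifen samples, all below the filter of 0.5. Its groups overlapped and no test was made.

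Among the SOX factors, Sox1 (chr8:12395519-12399555) was lower and Sox3 and Sox11 were not. Sox1 measured 4.06, 3.66 and 3.66 FPKM in the untreated and 1.69, 1.67 and 2.39 FPKM in the tamoxifen samples. Its untreated values lay within a narrow range, well above all tamoxifen values. The log2 fold change was −0.97 (SE 0.26 and, with the block, 0.17; adjusted p = 0.5 and 0.015), and the differences within replicate numbers were −1.22, −1.09 and −0.59. The locus of Sox1 lies within that of Gm5607, listed at no more than 0.0231 FPKM in any sample.

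Sox3 (chrX:58144541-58146605, minus strand) measured 6.59, 3.38 and 3.75 FPKM in the untreated and 3.87, 3.81 and 5.28 FPKM in the tamoxifen samples. Untreated replicate 1 was the highest of all, and the remaining values were mixed. The difference had no steady direction: it was −0.75, 0.17 and 0.48 in replicate numbers 1, 2 and 3, and the log2 fold change of −0.03 had a 95% interval of −0.56 to 0.49 with the block (adjusted p = 1.0, or 0.94 with the block). It changed sign under 8 of the alternative settings.

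Sox11 (chr12:28019133-28027583, minus strand), a SoxC factor, measured 8.68, 11.0 and 10.4 FPKM in the untreated and 10.5, 11.8 and 12.4 FPKM in the tamoxifen samples. It was slightly higher in each replicate number, by 0.27, 0.1 and 0.26 on the log2 scale, with overlapping groups. This log2 fold change of 0.21 did not pass the test (adjusted p = 1.0, or 0.22 with the block), with a 95% interval of −0.03 to 0.45 with the block.

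Nes (chr3:87775015-87784373, plus strand) encodes nestin, the intermediate filament protein of neural progenitors. It had 18.0, 14.7 and 13.5 FPKM in the untreated and 10.5, 10.4 and 10.4 FPKM in the tamoxifen samples. The tamoxifen values were nearly equal and all below the untreated ones. The log2 fold change was −0.55 (SE 0.21 and, with the block, 0.12; adjusted p = 0.86 and 0.027), and the differences within replicate numbers were −0.78, −0.49 and −0.37. This was the smallest difference of the 5 and the only one of them lost when values were scaled to a common sum with the block (adjusted p = 0.27).

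Tubb3 (chr8:125935464-125945910, plus strand), the class III beta tubulin of neurons, was the most abundant of the 9 and did not follow Nes. It measured 63.7, 47.0 and 50.8 FPKM in the untreated and 66.4, 60.4 and 51.4 FPKM in the tamoxifen samples. The groups overlapped, with replicate 1 the highest in each. Its log2 fold change was 0.15, with a 95% interval of −0.09 to 0.39 with the block (adjusted p = 1.0, or 0.37 with the block). The FPKM of Tubb3 lay above the upper limit of its own deposited confidence interval in all 6 samples, as in 16.0% to 19.3% of rows of at least 1 FPKM, so that the deposited intervals were not used as errors.

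Islr2 (chr9:58044104-58052126, minus strand) encodes a leucine-rich repeat and immunoglobulin domain membrane protein of developing neurons. It was low, with 1.23, 1.83 and 0.976 FPKM in the untreated and 0.443, 0.663 and 0.398 FPKM in the tamoxifen samples. Replicate 2 was highest in both groups, which were apart. It had a log2 fold change of −1.25 (SE 0.36 and, with the block, 0.21; adjusted p = 0.6 and 0.014), and −1.3, −1.34 and −1.11 within the replicate numbers. The locus overlaps that of 1600029O15Rik, which was listed at no more than 0.115 FPKM. Since Islr2 reached the filter through its untreated samples, its call with the block supports nothing further.

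**Figure D2:**
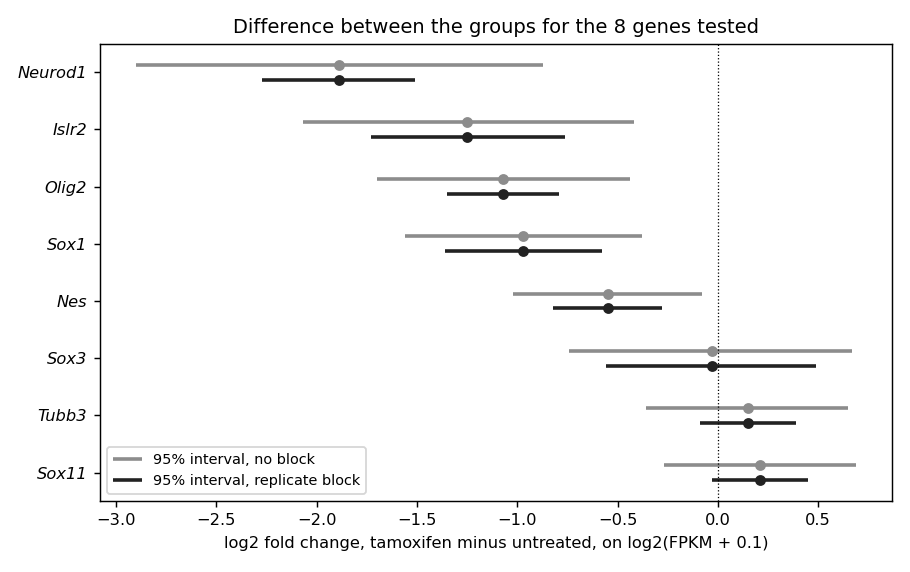
Log2 fold change, tamoxifen minus untreated (x axis), of the 8 genes tested (y axis), with 95% intervals without a block (grey) and with the replicate block (black). The 5 genes from Nes (−0.55) to Neurod1 (−1.89) have both intervals below 0, and those of Tubb3, Sox11 and Sox3 include 0.

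For each of the 5 genes an exact two-sided permutation test over the 6 samples gave p = 0.1, the smallest that 3 samples against 3 allow. The 5 were lower in each of the 3 replicate numbers, as were 28.2% of all genes tested. For groups that do not overlap, both outcomes are fixed in advance, so they add no support. Which replicates enter mattered for the blocked result. Without replicate number 1 or without number 3, all 5 passed the limma test with the block. Without number 2 only Neurod1 did (adjusted p = 0.033), and the values were 0.06 for Olig2, 0.14 for Sox1, 0.16 for Nes and 0.16 for Islr2. With no filter on low values limma with the block called 0 of 23363 genes, with 2016 lower and 1841 higher at an unadjusted p under 0.05, and Neurod1 had an adjusted p of 0.17.

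**Figure D3:**
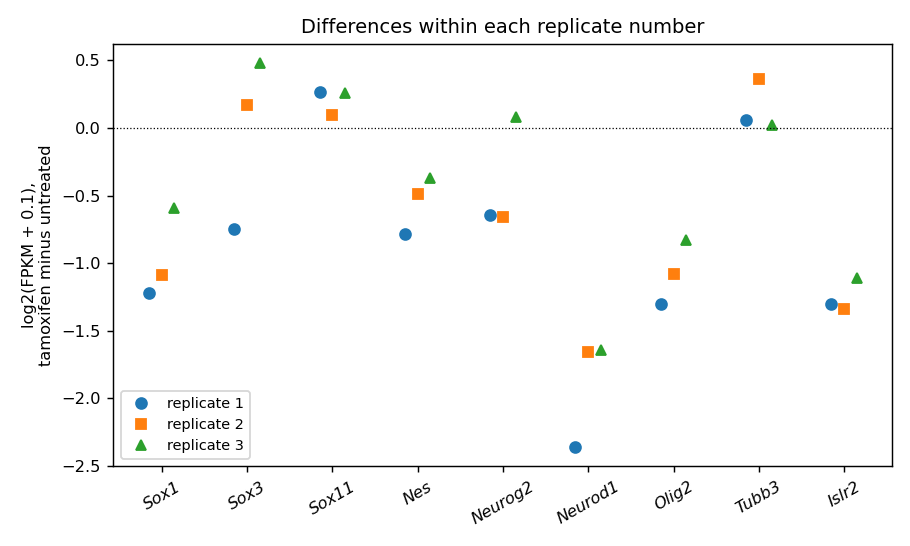
Difference between the tamoxifen and the untreated sample of the same replicate number in log2(FPKM + 0.1) (y axis) for the 9 genes (x axis); symbols mark replicates 1, 2 and 3. All 3 symbols are below 0 for Sox1, Nes, Neurod1, Olig2 and Islr2, all are above 0 for Sox11 and Tubb3, and Sox3 and Neurog2 have symbols on both sides.

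The 101 other neural genes, in 8 lists, placed these values in their families. Of these, 63 were tested. The unblocked limma fit called 0 of them, with 9 lower and 1 higher at an unadjusted p under 0.05. At that level 2.94% of all genes tested were lower. The block called 13 lower (20.6%) and 3 higher (4.76%), where 6.06% and 4.33% of all genes tested were called. The share called higher was thus near that of all genes. The median log2 fold change of the 63 was −0.24, and that of all genes tested was −0.019. Some of the 63, such as Lhx2 and Bhlhe22, reached the filter through their untreated samples. These counts and the median therefore describe the 63 genes and support nothing further. Among 27 factors of the neural plate and its progenitors, 14 were tested and 4 fell with the block. Pax6, a factor of eye, forebrain and spinal cord progenitors, measured 6.96, 4.33 and 5.64 FPKM in the untreated and 1.12, 1.38 and 2.6 FPKM in the tamoxifen samples (log2 fold change −1.73, adjusted p = 0.38, or 0.01 with the block). The homeobox genes Gbx2 (−0.79, adjusted p = 0.011 with the block) and En2 (−0.85, 0.021) also fell with the block. Lhx2 (−1.01, 0.041) completes the count, but it reached the filter through its untreated samples alone and its call supports nothing. Among its abundant members, Zic2 (0.32, adjusted p = 0.18 with the block) and the RNA-binding protein gene Msi1 (−0.56, 0.12) did not pass. The list's groups were apart and lower for 4 of the 14, where 5.4% of all genes tested were. Msi1 was among the 4, and so was Lhx2, with the limit given above.

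Of 15 further proneural bHLH genes 3 were tested: Olig1, Neurog1 and Bhlhe22, the last of which reached the filter through its untreated samples alone. Neurog1, a paralogue of Neurog2, was the only one past the threshold and it rose with the block. It measured 1.64, 1.82 and 3.27 FPKM in the untreated and 2.35, 2.73 and 5.85 FPKM in the tamoxifen samples (log2 fold change 0.63, adjusted p = 1.0, or 0.038 with the block). Its groups overlapped, and the difference was in the opposite direction to that of Neurod1. Bhlhe22 had a log2 fold change of −0.47 (adjusted p = 0.26 with the block) and did not pass.

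Of 17 partners and repressors of bHLH factors, 13 were tested and 2 fell with the block. Id2, an inhibitor that binds the partners of bHLH factors, measured 26.5, 24.6 and 61.0 against 9.82, 13.1 and 25.2 FPKM (log2 fold change −1.20, adjusted p = 0.82, or 0.0035 with the block). Hes6, which relieves the repression by HES1, measured 52.1, 38.6 and 39.8 against 25.9, 23.1 and 20.8 FPKM (log2 fold change −0.89, adjusted p = 0.42, or 0.0042 with the block). Its groups were apart, whereas those of Id2 overlapped through the high values of replicate 3. Rcor2 (0.06), Tcf3 (0.26), Id3 (0.36) and Rest (−0.13), which encodes a repressor of neuronal genes, did not pass. Rest in tamoxifen replicate 1 was 11.5 FPKM, against 24.3 to 52.5 FPKM in the other samples.

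Of 5 SOX relatives, 4 were tested. Sox21, a SoxB2 factor, fell with the block, from 5.22, 4.44 and 6.74 to 1.75, 1.73 and 3.3 FPKM (log2 fold change −1.28, adjusted p = 0.43, or 0.0046 with the block). The pluripotency and neural factor Sox2 was far more abundant than the SOX genes among the 9, at 163, 112 and 178 against 209, 165 and 181 FPKM, and did not pass (0.32, adjusted p = 0.13 with the block). The same held for the SoxC genes Sox4 (−0.41, 0.095) and Sox12 (0.08, 0.63).

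Of 23 genes of neuronal differentiation, 18 were tested. With the block 5 fell and 2 rose, where 6.06% and 4.33% of all genes tested did so. Those that fell were Nnat (−0.63, adjusted p = 0.012 with the block), Crmp1 (−0.57, 0.02), Nefl (−0.63, 0.032), Syp (−0.61, 0.034) and Elavl3 (−0.67, 0.035), which include a neurofilament subunit, a synaptic vesicle protein and a neuronal RNA-binding protein. Those that rose were Gap43, a growth cone protein, and Stmn2, a microtubule regulator. Gap43 measured 4.46, 3.31 and 8.32 FPKM in the untreated and 12.1, 9.34 and 13.3 FPKM in the tamoxifen samples, without overlap (log2 fold change 1.18, adjusted p = 0.6, or 0.0096 with the block), and Stmn2 had a log2 fold change of 0.41 (adjusted p = 1.0, or 0.032 with the block). The list as a whole had a median of −0.31. Its lowest fold change, chosen after its value was seen, was that of the neurofilament gene Nefh (−2.65, adjusted p = 0.1 with the block). Nefh was listed at 0 in tamoxifen replicate 1 and at 4.33 to 12.2 FPKM in the other samples. The value of −2.65 depends on the 0.1 added to that 0 before taking logs. Mean levels of Nefh were 9.27 FPKM in the untreated and 3.74 FPKM in the tamoxifen samples, with overlapping groups.

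Of 7 further beta tubulin genes 6 were tested and none passed, and neither did Tubb3: the limma fits called 0 with and without the block. At an unadjusted p under 0.05 there were 0 of the 6 without the block and 2 higher and 1 lower with it. The ubiquitous Tubb5 measured 946, 529 and 696 against 1110, 728 and 840 FPKM (0.32, adjusted p = 0.094 with the block), and Tubb4b (0.06) and Tubb2b (0.23) gave 0.73 and 0.17. Among 6 further intermediate filament genes 5 were tested and Prph, the peripherin of peripheral neurons, fell with the block from 64.5, 48.4 and 28.1 to 24.0, 24.4 and 18.3 FPKM (log2 fold change −1.01, adjusted p = 0.66, or 0.01 with the block). Vim, the partner of nestin in progenitors and also a fibroblast gene, did not pass (−0.13, 0.63), nor did Ina (−0.44, 0.23). Islr, the paralogue of Islr2, was at or below 0.172 FPKM in every sample and was not tested.

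**Figure D4:**
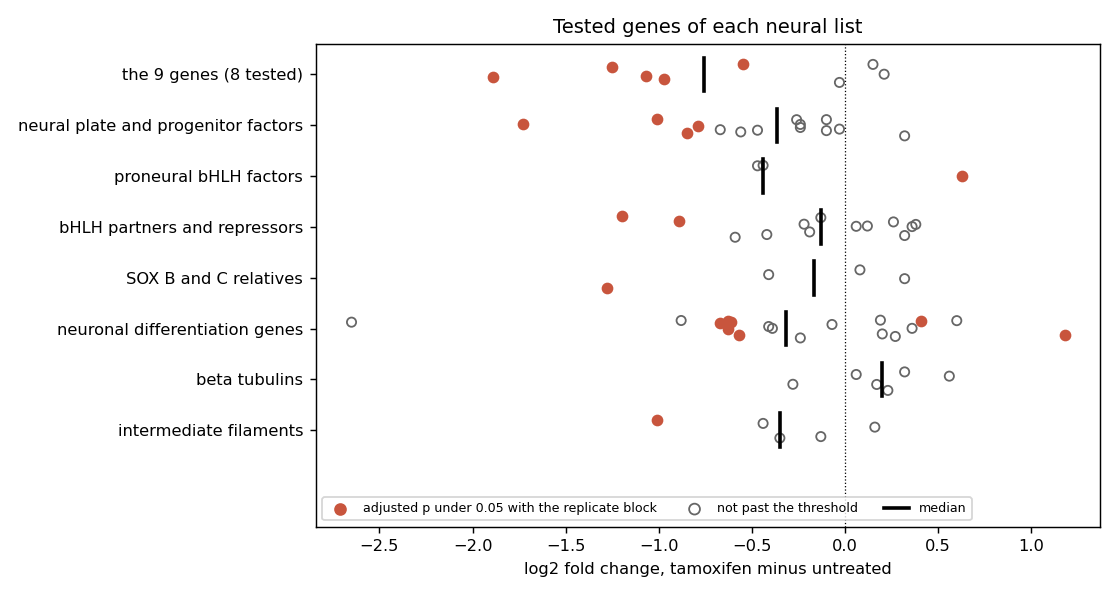
Log2 fold change, tamoxifen minus untreated (x axis), of the tested genes of each neural list (y axis); points are genes, filled where the adjusted p with the replicate block was under 0.05, and black bars are medians. Filled points lie on the lower side for 5 of the 8 members tested and for 13 of the 63 other genes. On the higher side they mark 3 of the 63 (Gap43, Neurog1 and Stmn2). With the block, 6.06% of all genes tested were lower and 4.33% higher. Some genes shown reached the filter through their untreated samples, so these counts are a description only.

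Marker genes of other cells were followed beside these values. The 14 feeder fibroblast genes summed to 132, 210 and 302 FPKM in untreated replicates 1, 2 and 3. In the tamoxifen replicates they summed to 227, 179 and 194 FPKM, with overlapping groups. Tagln held much of the sum, at 73.2, 74.9 and 147 against 137, 59.2 and 80.1 FPKM. Acta2 was also higher in tamoxifen replicate 1 (40.1 FPKM) than in untreated replicate 1 (14.6 FPKM). Col1a1, Thy1 and Dcn did not follow the sum and were lowest in replicate 1 of each group. Of the 12 tested, Twist1 fell with the block (−0.84, adjusted p = 0.68, or 0.016 with the block), and the abundant Tagln (−0.10), Acta2 (−0.11) and Col1a1 (0.05) did not pass. No defining gene of the list was at 0 in all samples, although Lum was at 0 in untreated replicate 1 and at or below 0.202 FPKM in the others. Nes and Vim are expressed by fibroblasts too, and the part of feeder RNA in their values was not tested.

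Of 10 pluripotency genes, Klf2 rose with the block (0.63, adjusted p = 0.88, or 0.032 with the block), and Pou5f1 (0.22), Utf1 (0.16) and Nanog (0.48) did not pass. Groups were apart and higher for 2 of the 10, Nanog and Klf2, and apart and lower for 1, Tfcp2l1. Of all genes tested, 3.09% were apart and higher and 5.4% apart and lower. Of the 4 formative and primed genes, all tested, 0 passed in either limma fit, also at an unadjusted p under 0.05, among them Dnmt3b (0.09), Pou3f1 (0.03) and Otx2 (−0.24). Of 8 primitive endoderm genes 5 were tested and 3 fell with the block, where 6.06% of all genes tested did. The 3 were Gata6 (−1.43, adjusted p = 0.017 with the block), Lama1 (−0.66, 0.024) and Gata4 (−0.85, 0.036). Dab2 (0.23) and Pdgfra (−0.44) did not pass. Gata6 reached the filter through its untreated samples alone, so that neither its call nor the count of 3 supports anything further. The 8 primitive endoderm genes summed to 11.2 to 15.8 FPKM in the untreated and 7.06 to 12.5 FPKM in the tamoxifen samples. Of 6 primitive streak genes 2 were tested, and Eomes fell with the block (−0.70, adjusted p = 0.038 with the block) while T did not pass (0.38, 0.43), with sums of 3.78 to 6.12 and 3.38 to 4.34 FPKM. The part of cell composition in the neural values was not tested.

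**Figure D5:**
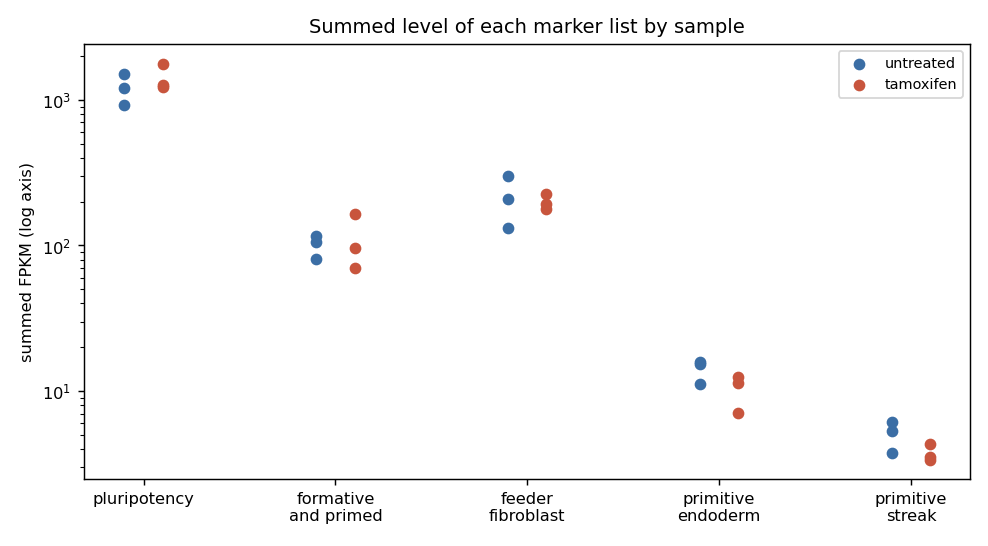
Summed FPKM (y axis, log scale) of 5 marker lists (x axis) in untreated (blue) and tamoxifen (red) samples, 1 point per sample. The groups overlap in each list; the feeder fibroblast sum spans 132 to 302 FPKM in the untreated and 179 to 227 FPKM in the tamoxifen samples.

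Kdm2b itself measured 25.4 ± 3.36 FPKM in the untreated and 22.3 ± 2.6 FPKM in the tamoxifen samples (log2 fold change −0.19, adjusted p = 1.0, or 0.31 with the block). A value over the whole gene cannot show the loss of 1 exon and so does not check the labels. Over all genes, FPKM summed to between 549379.4 and 1045707.3 per sample, of which loci under 300 bp held 23.9% to 67.7%. Read totals are not given. Steps between low values put the depth of the other 5 samples at 0.653 to 0.952 of that of untreated replicate 1, with 19.0% to 23.7% of low genes on a step.

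The scaling of these sums touched the members. Dividing by each sample's FPKM sum moved the median of all genes from −0.019 to 0.081 and left only Islr2 of the 5 with groups apart, since Nes, for example, then measured 32.8, 14.1 and 16.7 against 16.9, 11.2 and 16.0. Leaving out loci under 300 bp before that division moved the median to −0.105 and set all 5 apart again, with Neurod1 at 22.9, 27.2 and 50.6 against 3.87, 7.92 and 15.6. For Neurod1 the log2 fold changes were −1.8 and −2.0 under these scalings.

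As a description over the 6 samples, which share their groups, the genes with the most similar profile of log2(FPKM + 0.1) were Rimklb for Neurod1, Gca for Olig2, Serpine2 for Islr2, Gm715 for Sox1, Rimkla for Sox3, Nrarp for Nes, Traf5 for Tubb3 and Tns1 for Sox11. Serpine2 had 35.5, 49.0 and 30.4 FPKM in the untreated and 17.6, 23.0 and 14.7 FPKM in the tamoxifen samples, and like Islr2 was highest in replicate 2 of each group. Nrarp had 4.68, 3.05 and 2.58 against 1.88, 1.7 and 1.62 FPKM, with groups apart as for Nes. Between 4 and 73 genes per member had a Pearson coefficient above 0.95 over 6 samples, so that these names are the first of many for most members. Among the members themselves, Neurod1 and Olig2 had the most similar profiles, both highest in replicate 3 of each group.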

How the data were processed

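PolyA+ RNA of 3 untreated and 3 tamoxifen-treated samples was analysed; ChIP-seq samples of the series were not analysed here. The authors aligned paired-end reads to mm9 with Tophat2 and quantified refGene models with cuffdiff 2.1.1. The deposited tables hold FPKM per gene row, with intervals and no counts; the study calls its values RPKM. Whether counting used strand is not given in the sources used here. Gene positions are mm9, written 1-based.

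FPKM were summed by gene name, leaving out 6 names with a failed row. Genes of at least 0.5 FPKM in at least 3 of 6 samples were compared on log2(FPKM + 0.1), which understates changes of low genes, with limma 3.58.1 in R 4.3.3 (lmFit; eBayes with trend) and Benjamini-Hochberg adjustment over all 12997 genes. Tables were handled with numpy 2.4.6 and pandas 2.3.3 under Python 3.11.15. The fit was also run on simulated data, whose replicate effects and spread were taken from the blocked fit of these samples. Such a run cannot check whether the pairing holds. A second fit had the replicate number as a block: deviations from group means correlated at 0.544, 0.605 and 0.506 for equal numbers and −0.379 to −0.105 for unequal ones, so the numbers, taken from the sample titles, were treated as pairs. Deviations cancel within each group, so positive values for equal numbers bring negative ones for unequal numbers. The pairing was judged from the same samples that the blocked fit then tested. The study describes biological triplicates; the labels do not name separate cultures, and the p-values measure the spread between these samples, which may be technical. The members and lists were chosen with earlier results of these data known. Named list genes are the 3 most abundant per list, up to 4 past the threshold by lowest p with the block, and relatives of the members; where more than 4 passed, the remaining ones were named after their values were seen. Some genes that this rule names are not reported here. The promoters were found for 8 of the 9 genes, and the most similar gene is that with the highest Pearson coefficient. Alternatives were other pseudocounts, scalings, filters and rows, eBayes without trend, and leaving out each sample; 4 blocked alternatives were added after the data were seen.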

Additional observations from a re-analysis of the deposited data

How the results depend on the processing

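Without the block, the direction of Sox1, Nes, Neurod1, Olig2, Islr2, Sox11 and Tubb3 was kept under every alternative run, and no alternative called any of the members. Sox3 (−0.03) changed sign to 0.06 scaled to TPM and 0.07 with quantile normalization, and, with the block, to 0.06 scaled to TPM, 0.07 with quantile normalization and 0.33 without replicate 1. Leaving out single samples gave −0.22 to 0.26 for Sox3, above 0 without untreated replicate 1 (0.26), tamoxifen replicate 1 (0.04) or tamoxifen replicate 2 (0.05). Members without overlap numbered 1 instead of 5 when scaled to TPM. The replicate block raised the members lower from 0 to 5, the list genes to 13 lower and 3 higher and all genes to 787 lower and 563 higher, from 1 and 3; it changed no call of Sox3, Sox11 or Tubb3. With the block, members lower, list genes lower and higher, and all genes lower and higher were 5, 10, 4, 595 and 604 with quantile normalization; 4, 7, 1, 336 and 431 scaled to TPM; 5, 15, 1, 1187 and 421 scaled to TPM without short loci; 5, 15, 4, 931 and 659 with a pseudocount of 1; 5, 15, 6, 1011 and 744 without replicate 1; 1, 2, 0, 43 and 36 without replicate 2; 5, 14, 1, 478 and 359 without replicate 3; and 0 of each with no filter. Without the block, all genes lower and higher were 0 and 1 with no filter and 0 and 0 at 1 FPKM in all samples, genes lower were 0 with a pseudocount of 1, and leaving out single samples gave 0 to 7 lower and 2 to 5 higher. The cause of these shifts was not tested. Depth is unknown beyond relative steps, and Neurog2 is too low for a comparison at any depth seen here.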

Other observations

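Genes within 20000 bp of the 9 loci were read after the values of the members had been seen. Pml, 12860 bp from Islr2, which encodes the scaffold of PML nuclear bodies, measured 40.7, 41.3 and 50.7 FPKM in the untreated and 26.5, 30.8 and 33.4 FPKM in the tamoxifen samples, without overlap (log2 fold change −0.55, limma adjusted p = 0.86, or 0.015 with the replicate block). Bcan, a brain proteoglycan gene 7079 bp from Nes, measured 2.57, 2.59 and 0.842 against 0.657, 0.71 and 0.432 FPKM, also without overlap (−1.46, adjusted p = 0.68, or 0.014 with the block). Crabp2, 17720 bp from Nes, which encodes a retinoic acid carrier, had overlapping groups (−0.53, adjusted p = 1.0, or 0.043 with the block). Tcf25, 7390 bp from Tubb3 (0.08, adjusted p = 0.6 with the block), and 4930422G04Rik, 15121 bp from Neurog2 (0.08, 0.8), did not pass. Mc1r, 816 bp from Tubb3, was at or below 0.0694 FPKM and was not tested.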
